A study of Mus musculus with 12 samples.

Results

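The interleukin genes of the mouse thymus were followed over 3 ages. They were taken as every gene symbol of the deposited mRNA table that starts with Il followed directly by a number, with the transcripts of a symbol summed. The rule found 82 of 22843 genes, from 269 transcripts, 43 of them assembled by the authors and not annotated. By what the proteins are known to do, 37 are ligands, 39 are receptor chains and 5 are inhibitors (antagonists, decoys or binding proteins). Il4i1 matches by its name alone, since it encodes an amino acid oxidase induced by interleukin 4.

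The libraries came from the whole thymus of wild type male C57BL/6 mice kept without treatment in a specific-pathogen-free environment. They fall into 3 groups of 2 biological replicates: 2W (2 weeks), 6W (6 weeks) and 3M (3 months). The RNA was depleted of ribosomal RNA and the libraries kept strand marks. How many animals stand behind 1 library is not given in the sources used here.

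Interleukins are secreted signals between cells of the immune system, read by receptors built from a ligand-specific chain and, in most families, a shared chain. In the thymus, interleukin 7 from the epithelium keeps the earliest thymocytes alive and dividing through Il7r and the common gamma chain Il2rg, while Il2ra (CD25) marks early thymocytes before they rearrange their antigen receptor as well as regulatory T cells. The interleukin 1 family, with interleukins 18 and 33, signals through receptors that share their inner domain with the Toll-like receptors, and the interleukin 6 family through Il6st (gp130).

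Estimated counts summed to 16519753 to 22553481 per library, and the interleukin genes took 0.203% (2W replicate 2) to 0.259% (3M replicate 2) of the counts with a symbol. Levels between libraries are given as counts per 1000000 scaled by edgeR's TMM method (CPM), and levels between genes as FPKM, which is per transcript length. The markers of CD4 CD8 double-positive thymocytes, which make up most of the organ, were present in every library, with a summed level of 11728 to 16378 CPM. One library stands apart in blood content: 3 red blood cell genes summed to 1516 CPM in 3M replicate 2 and to 277 to 578 in the other libraries. In whole tissue, fewer cells of a type and less RNA per cell cannot be told apart.

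The promoters of 4 genes on which the results turn are printed first, since Il7r receives the main interleukin of early thymocytes and Il18r1, Il18rap and Il18bp serve the same ligand, interleukin 18. Each is 300 bases from RefSeq on GRCm38.p6, from 250 bases before the most upstream start to 50 after it, read 5′ to 3′ on the strand of the gene. Capitals mark the STAT motif TTCNNNGAA and the Runx motif TGTGGT, searched on both strands.

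Il7r (chr15:9529827-9530126, minus strand): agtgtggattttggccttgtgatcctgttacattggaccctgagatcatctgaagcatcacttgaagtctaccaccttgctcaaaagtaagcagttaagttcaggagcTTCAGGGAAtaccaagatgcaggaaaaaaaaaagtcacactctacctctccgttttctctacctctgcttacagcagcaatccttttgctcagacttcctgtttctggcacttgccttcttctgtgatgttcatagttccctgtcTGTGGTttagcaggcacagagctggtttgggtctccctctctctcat
Il18r1 (chr1:40465302-40465601, plus strand): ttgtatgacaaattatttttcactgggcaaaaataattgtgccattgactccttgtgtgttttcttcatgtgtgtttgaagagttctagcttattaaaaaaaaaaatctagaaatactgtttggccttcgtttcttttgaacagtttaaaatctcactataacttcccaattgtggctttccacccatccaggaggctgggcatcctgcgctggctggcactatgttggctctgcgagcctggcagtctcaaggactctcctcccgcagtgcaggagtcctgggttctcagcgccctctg
Il18rap (chr1:40515112-40515411, plus strand): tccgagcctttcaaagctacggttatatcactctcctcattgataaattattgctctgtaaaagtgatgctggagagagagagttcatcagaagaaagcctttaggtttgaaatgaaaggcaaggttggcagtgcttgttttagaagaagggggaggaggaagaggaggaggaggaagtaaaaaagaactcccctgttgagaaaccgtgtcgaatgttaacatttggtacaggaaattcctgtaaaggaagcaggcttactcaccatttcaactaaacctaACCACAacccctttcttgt
Il18bp (chr7:102018183-102018482, minus strand): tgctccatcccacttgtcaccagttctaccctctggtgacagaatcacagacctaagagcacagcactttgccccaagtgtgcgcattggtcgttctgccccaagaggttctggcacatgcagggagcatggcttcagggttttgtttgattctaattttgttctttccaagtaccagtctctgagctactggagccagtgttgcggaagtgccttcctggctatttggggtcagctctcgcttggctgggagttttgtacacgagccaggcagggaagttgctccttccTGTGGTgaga

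In the Il7r promoter, TTCAGGGAA begins 142 bases before the start site and TGTGGT 3 bases after it. The Il18rap window holds the Runx letters on the opposite strand (ACCACA) 31 bases after the start, the Il18bp window holds TGTGGT 40 bases after it, and the Il18r1 window holds neither motif. Neither motif was found in the windows, not printed here, of Il1r1, Il2ra, Il6ra, Il11ra1, Il11ra2, Il12b, Il13ra1 and Il33. Il2rb, Il10ra and Il10rb, also among the changed genes, have no entry. Of the 82 genes, 65 have an entry, with 80 promoters. The STAT letters were found in 12.5% of these and in 8.3% of all 32851 promoters of the table. The Runx letters were found in 26.2% and 16.8%, and the AP-1 motif TGANTCA in 17.5% and 7.81%. These matches describe letters in a window and not binding.

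The thymus held the receptors of the interleukins at much higher levels than the interleukins. The median of the mean FPKM was 5.07 over the 39 receptor chains and 0.175 over the 37 ligands. A mean FPKM above 1 was reached by 30 receptor chains and by 8 ligands.

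**Figure D1:**
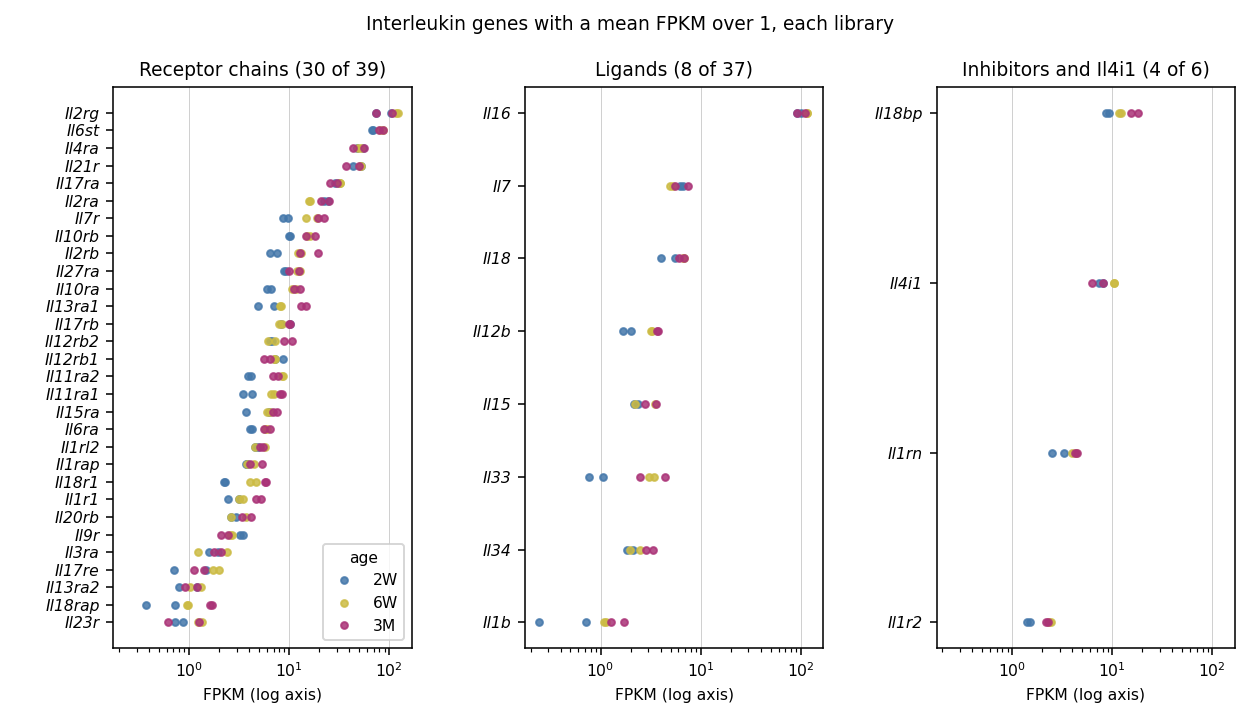
FPKM on a log axis of the interleukin genes with a mean FPKM over 1, in receptor chains, ligands, and inhibitors with Il4i1, with 1 point per library coloured by age. Il16 at a mean of 104 FPKM stands alone among the ligands, and Il2rg, Il6st, Il4ra and Il21r lead the receptor chains.

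The 3 highest genes were Il16 (mean 104 FPKM over the 6 libraries), whose precursor is a PDZ domain protein of lymphocytes, Il2rg (99.9), the common gamma chain, and Il6st (78.7), the shared chain of the interleukin 6 family. They took 44.1% of the summed FPKM of all interleukin genes. Il4ra (50.6), Il21r (47.8), Il17ra (29.96), Il2ra (20.7), Il7r (15.6), Il10rb (14.0) and Il18bp (12.5) followed, and the first 10 took 73.9%. In CPM, 8 of these 10 were also among the first 10. Il16 lay at 91.5 to 117 FPKM and Il2rg at 73.3 to 123 FPKM, so that the order of the pair does not hold beyond the spread over libraries: Il2rg led at 6W and Il16 at 2W and 3M. Il4ra (43.5 to 55.6 FPKM) and Il21r (37.5 to 52.4 FPKM) overlapped as well.

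Many of the best known interleukins were at or near 0 in the thymus. Il2, Il17c, Il20 and the receptor chain gene Il1rapl2 had 0 counts in all 6 libraries, which allows up to 3 counts, or 0.132 to 0.190 CPM, in a library (counting error only). A further 10 genes did not pass 3 counts in any library: Il17a, Il3, Il9, Il19, Il24, Il25, Il31, Il1f8, Il1f10 and Il1rapl1. Il4, the ligand of Il4ra, had 2, 2, 2, 3, 2 and 4 counts. Over 12 of the 37 ligands and 2 of the 39 receptor chains the count stayed at 3 or below everywhere. Of the 82 genes, 55 passed the filter on low counts and were tested; of the other 27, 13 exceeded 3 counts in some library, and the highest of their counts was 14.

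Among the receptor chains of the common gamma family, Il7r and Il2rb, the signalling chain shared by the receptors for interleukins 2 and 15, were higher at 3M than at 2W, while Il2ra was lowest at 6W. The ligand Il7 and the shared chain Il2rg did not pass the test in any comparison.

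Il7r was at 34.4 and 38.5 CPM at 2W, 70.4 and 55.3 at 6W, and 85.3 and 71.4 at 3M. The 3 ages did not overlap, and 3M exceeded 2W 2.15-fold (log2 fold change 1.10 ± 0.16 SE, adjusted p = 0.013). Il2rb was at 30.9 and 26.9 CPM at 2W, 48.6 and 48.1 at 6W, and 49.9 and 69.9 at 3M. It rose 2.07-fold from 2W (log2 fold change 1.05 ± 0.18, adjusted p = 0.018). Both 2W libraries lay below the other 4. Between 74.4% and 89.2% of the Il2rb counts fell on 1 assembled transcript, and with annotated transcripts alone the log2 fold change was 1.10 with an adjusted p of 0.29.

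Il2ra was at 103 and 113 CPM at 2W, 71.7 and 70.3 at 6W, and 113 and 91.2 at 3M. Both 6W libraries lay below the other 4, and neither step passed the adjusted test (6W against 2W, log2 fold change -0.61 ± 0.14, adjusted p = 0.086; 3M against 6W, 0.52 ± 0.14, adjusted p = 0.23). Il7 had the same order of means, with 19.4 and 21.2 CPM at 2W, 15.0 and 16.46 at 6W, and 23.6 and 16.8 at 3M. Its log2 fold changes at the same steps were -0.37 ± 0.19 (adjusted p = 0.33) and 0.36 ± 0.18 (adjusted p = 0.43).

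Il2rg ranged from 128 to 212 CPM and its ages overlapped between 2W and 3M (log2 fold change -0.05 ± 0.22, adjusted p = 0.91). Its replicates differed by 187 against 130 CPM at 2W and 128 against 178 at 3M. Both 6W libraries of Il2rg, at 199 and 212 CPM, lay above the other 4, with log2 fold changes of 0.37 ± 0.22 at 6W against 2W (adjusted p = 0.39) and -0.42 ± 0.22 at 3M against 6W (adjusted p = 0.43). Il4ra (187 to 246 CPM) and Il21r (97.2 to 139 CPM) changed by -0.11 ± 0.15 and -0.22 ± 0.15 on the log2 scale from 2W to 3M, neither past the test. Il9r, the receptor for interleukin 9, was at 13.5 and 15.4 CPM at 2W and at 9.71 to 10.7 in the other 4 libraries (3M against 2W, log2 fold change -0.49 ± 0.15, adjusted p = 0.096). Its own ligand Il9 had a single count in 1 library.

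Il15 (2.91 to 4.57 CPM) and its presenting chain Il15ra (6.499 to 12.2 CPM) had log2 fold changes of 0.46 ± 0.29 and 0.51 ± 0.24 from 2W to 3M (adjusted p = 0.36 and 0.23). Il21, the ligand of Il21r, stayed at 0.485 to 1.33 CPM.

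**Figure D2:**
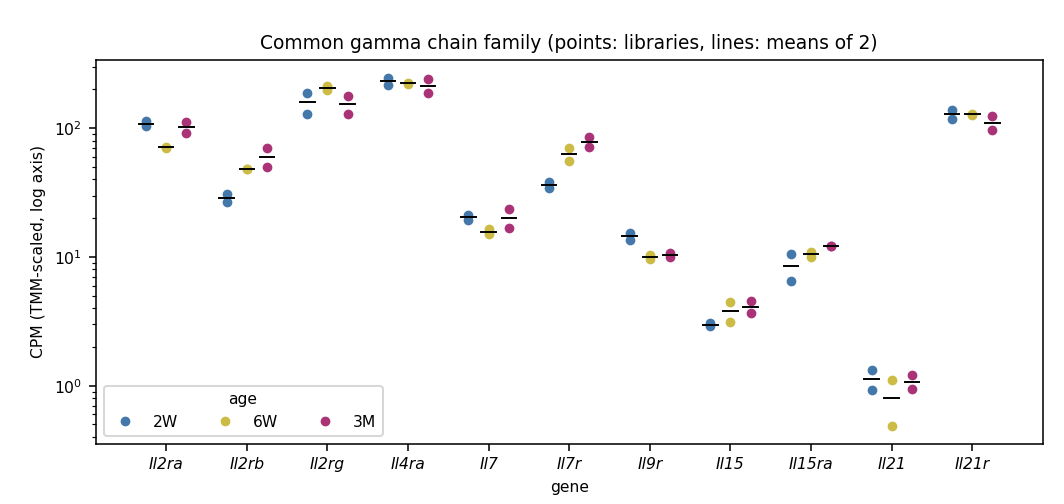
CPM on a log axis of 11 genes of the common gamma chain family, with 1 point per library, grouped by age from 2W to 3M, and a line at the mean of 2. Il2rb and Il7r lie lowest at 2W, Il2ra is lowest at 6W, and Il4ra and Il21r have overlapping ages at 2W and 3M.

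The comparison of 6W with 2W addresses the growth of the organ, and that of 3M with 6W its early decline. At 6W against 2W, Il10ra was the only interleukin gene of 55 with an adjusted p under 0.05 in edgeR's quasi-likelihood test, against 1.47% of all 14805 tested genes called higher and 0.263% called lower. At the threshold of the study (p under 0.05 with a log2 fold change beyond 1 in either direction), 2 genes (3.64%) passed, against 5.36% of all genes. They were Il33 and Il1f9, both higher at 6W, and Il1f9 counts only as a description for the reason given below. At an unadjusted p under 0.05 there were 18 (32.7%), against 18.9% of all genes. The 55 genes had a median log2 fold change of 0.35, and all tested genes one of -0.0061.

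Il10ra, the ligand-binding chain of the interleukin 10 receptor, was at 23.7 and 24.8 CPM at 2W, 42.8 and 38.9 at 6W, and 41.9 and 46.8 at 3M. It rose 1.68-fold by 6W (log2 fold change 0.75 ± 0.12, adjusted p = 0.042) and stood at 1.83-fold of 2W at 3M (0.87 ± 0.12, adjusted p = 0.011). The call at 6W was lost on leaving out either 2W or either 6W library, where the log2 fold change of Il10ra was 0.68 to 0.82. With all 6 libraries DESeq2 called 9 interleukin genes. Over all tested genes it called 888, in place of 257 in edgeR's test.

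Il1f9, which encodes interleukin 36 gamma, had 2 and 2 counts at 2W, 11 and 14 at 6W, and 5 and 15 at 3M. It passed the filter on low counts only through its libraries of 6W and 3M, so its place among the genes past the threshold is a description. Il10, Il12a and Il22ra2 also passed only through libraries of 6W and 3M, and Il1b only with their help. All of these genes count in the medians given here.

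At 3M against 6W, none of the 55 interleukin genes had an adjusted p under 0.05, and 0.00675% of all genes did. None passed the threshold of the study, which 2.11% of all genes did. In edgeR's test 9 (16.4%) had an unadjusted p under 0.05, against 14.3% of all genes (Il12rb2, Il13ra1, Il17rb, Il18bp, Il18r1, Il18rap, Il1r1 and Il2ra higher at 3M, and Il4i1 lower). DESeq2 called 2 at an adjusted p under 0.05, and 341 of all tested genes. The median log2 fold change was 0.11, beside 0.023 over all tested genes.

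The widest span, 3M against 2W, gave most of the changes that passed the test, and all of them were rises. Of the 55 genes, 14 (25.5%) were higher at 3M and 0 were lower at an adjusted p under 0.05, where 7.91% of all tested genes were called higher and 3.10% lower. They were 11 receptor chains (Il7r, Il2rb, Il13ra1, Il10ra, Il10rb, Il11ra1, Il11ra2, Il6ra, Il1r1, Il18r1 and Il18rap), the ligands Il33 and Il12b, and the inhibitor Il18bp. The libraries of 3M lay above those of 2W without overlap in 28 genes (50.9%, against 27.7% of all genes). They lay below them in 4, Il11, Il12rb1, Il17ra and Il9r (7.27%, against 24.0% of all genes). Il10, Il1f9 and Il1b are among the 28 as a description, since they passed the filter on low counts only with libraries of 6W and 3M. At the threshold of the study 10 (18.2%) were higher and 0 lower, against 9.35% of all genes in either direction. They were Il7r, Il2rb, Il13ra1, Il11ra1, Il18r1, Il18rap and Il33 from the list above, with Il1b, Il1f9 and Il17rc. Il1b and Il1f9, whose filter is described above, are counted as a description. The median log2 fold change was 0.41, and over all tested genes -0.026. This comparison shares the 2W libraries with that of 6W against 2W.

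The count rests on single libraries. It fell in each fit that left out 1 library. The number called over all tested genes fell as well in each of these fits except that without 3M replicate 1. All 14 kept a positive log2 fold change in each of these fits, and among them Il13ra1 and Il18r1 lost the call only without 2W replicate 1. Il7r, Il10ra and Il11ra1 lost it without either 2W library and in no other of these fits, while Il12b, Il1r1 and Il6ra lost it whichever of the 6 libraries was left out. Il2rb and Il33 lost it without either library of 2W or 6W, as did Il10rb and Il18bp, which also lost it without 3M replicate 2, and Il11ra2, which also lost it without 3M replicate 1.

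**Figure D3:**
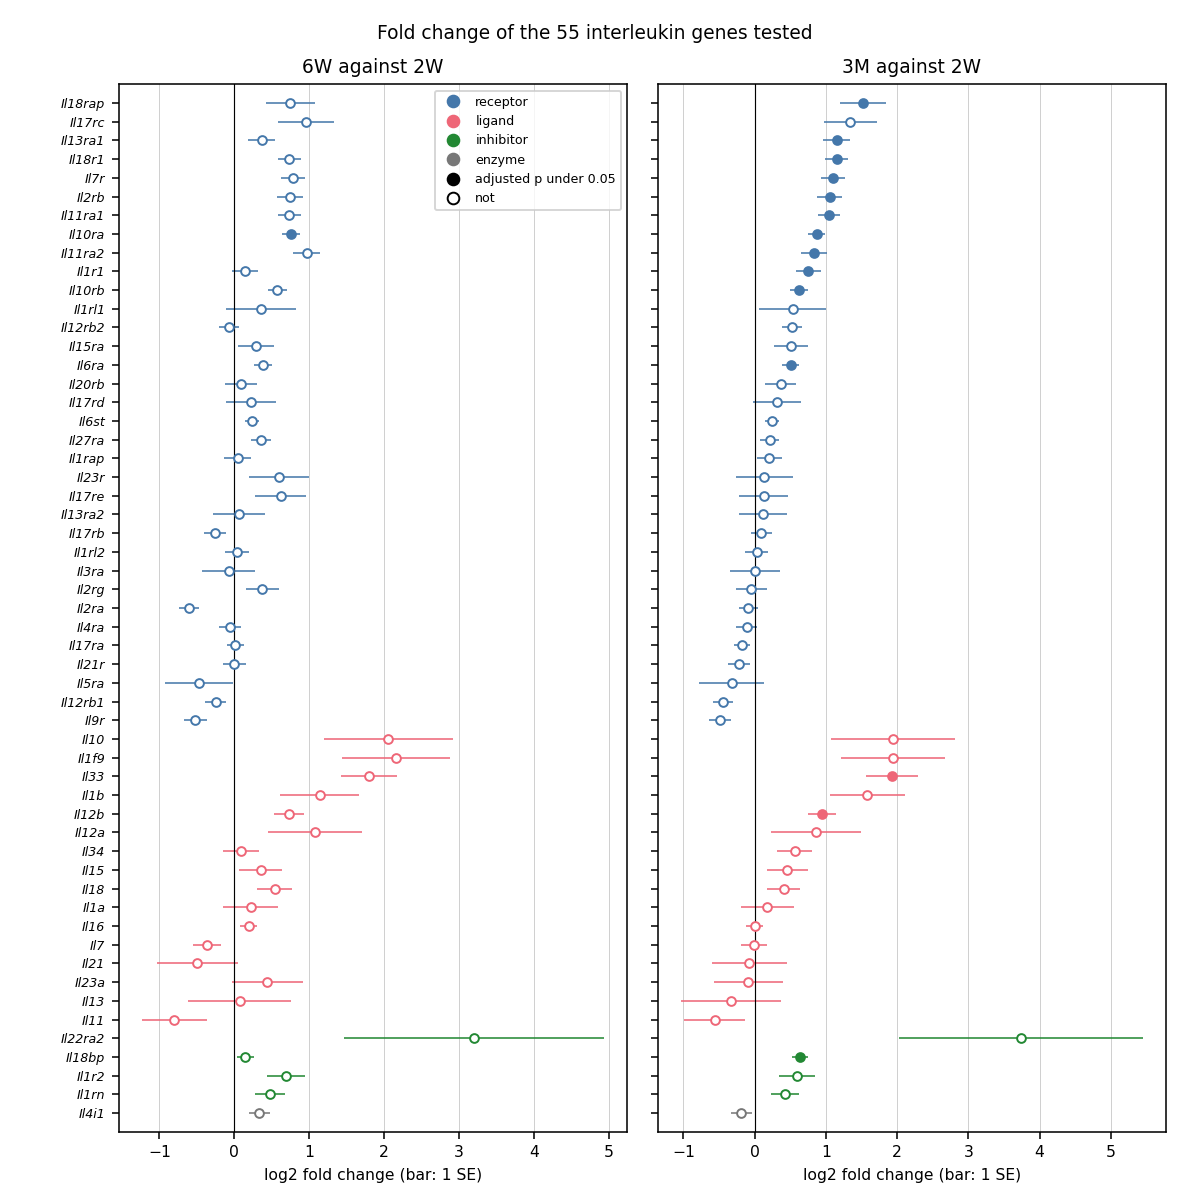
Log2 fold change, with a bar of 1 SE, of the 55 interleukin genes tested at 6W against 2W (left) and 3M against 2W (right), ordered by role and fold change, with filled points for an adjusted p under 0.05. Filled points number 1 on the left (Il10ra) and 14 on the right, all above 0, and the wide bars belong to genes with few counts such as Il22ra2.

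The receptor of interleukin 18 and its soluble antagonist were higher together at 3M. Il18r1, the ligand-binding chain, was at 7.65 and 8.89 CPM at 2W, 14.3 and 13.2 at 6W, and 19.2 and 17.5 at 3M. The ages followed each other without overlap, with a 2.22-fold rise from 2W to 3M (log2 fold change 1.15 ± 0.15, adjusted p = 0.010). With annotated transcripts alone the log2 fold change of Il18r1 was 1.91 (adjusted p = 0.027). Il18rap, the accessory chain that completes the receptor, was at 2.02 and 3.98 CPM, then 4.99 and 5.12, then 9.02 and 8.33.

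Il18rap rose 2.88-fold (log2 fold change 1.53 ± 0.32, adjusted p = 0.031), the largest called change among the receptor chains, from 32 and 65 counts at 2W. The call of Il18rap was lost in 8 of 15 alternatives, among them annotated transcripts alone (log2 fold change 1.67, adjusted p = 0.21) and 5 of the 6 fits that leave out 1 library. Il18bp, which binds free interleukin 18, was at 19.2 and 18.0 CPM at 2W, 20.1 and 21.0 at 6W, and 28.6 and 29.2 at 3M (log2 fold change 0.64 ± 0.11, adjusted p = 0.020), so that most of its difference lay between 6W and 3M. The call of Il18bp was lost in 7 of 15 alternatives, with an adjusted p of up to 0.10. The ligand Il18 was at 3.29 to 5.56 CPM, with a log2 fold change of 0.41 ± 0.23 (adjusted p = 0.31).

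Il18r1 and Il18rap lie next to each other in a run of 6 neighbouring interleukin receptor genes on chromosome 1, in the order Il1r2, Il1r1, Il1rl2, Il1rl1, Il18r1 and Il18rap. Along it the log2 fold changes at 3M against 2W were 0.60, 0.75, 0.03, 0.54, 1.15 and 1.53, and 3 of the 6 were called higher, beside 7.91% of all tested genes. Il1r1, the signalling receptor of interleukin 1, was at 13.4 and 17.2 CPM at 2W, 16.0 and 17.7 at 6W, and 28.2 and 23.5 at 3M (log2 fold change 0.75 ± 0.17, adjusted p = 0.041). Its neighbour Il1rl2, the receptor of interleukin 36, stayed at 14.8 to 18.4 CPM (0.03 ± 0.16, adjusted p = 0.93). The difference between neighbours was not tested.

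**Figure D4:**
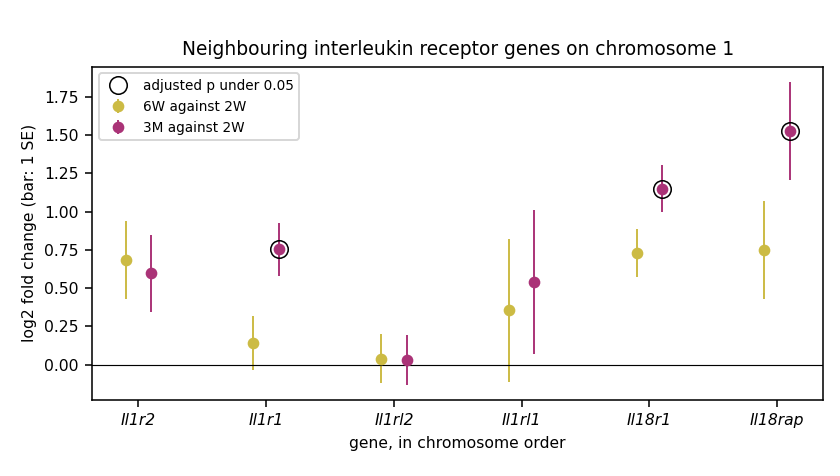
Log2 fold change, with a bar of 1 SE, of 6 neighbouring receptor genes on chromosome 1 in their order along it, at 6W against 2W and 3M against 2W, with circles at an adjusted p under 0.05. Il1r1, Il18r1 and Il18rap are circled at 3M, and Il1rl2 between them stays near 0 in both comparisons.

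Among the other genes of the interleukin 1 family, Il33 had the largest called fold change. Il33, a nuclear protein of epithelial and stromal cells that is released as an alarm signal, was at 1.90 and 3.00 CPM at 2W, 8.77 and 8.30 at 6W, and 12.3 and 6.54 at 3M. All 4 later libraries exceeded both at 2W, with a 3.81-fold rise at 3M (log2 fold change 1.93 ± 0.37, adjusted p = 0.024) and a log2 fold change of 1.80 ± 0.37 already at 6W (adjusted p = 0.072). The call of Il33 at 3M was lost in 6 of 15 alternatives, with an adjusted p of up to 0.12. The 3M replicates lay on either side of both 6W libraries. The interleukin 33 receptor Il1rl1 stayed at 0.759 to 1.74 CPM.

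Il1b, which encodes interleukin 1 beta, had a log2 fold change of 1.58 ± 0.53 at 3M against 2W from 17 and 6 counts at 2W (adjusted p = 0.11). Il1b passed the filter on low counts only with its libraries of 6W and 3M, so this value is a description. The antagonist Il1rn and the decoy receptor Il1r2 had log2 fold changes of 0.43 ± 0.19 and 0.60 ± 0.25 (adjusted p = 0.22 and 0.19). Of the 14 tested genes of the family, 5 were called higher and 0 lower at 3M against 2W, beside 7.91% and 3.10% of all tested genes.

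In the receptor for interleukin 4 and interleukin 13, 1 chain passed the test. Il13ra1, which pairs with Il4ra, was at 20.5 and 29.3 CPM at 2W, 32.0 and 32.1 at 6W, and 59.8 and 51.0 at 3M. It rose 2.22-fold (log2 fold change 1.15 ± 0.19, adjusted p = 0.015). Its largest step was from 6W to 3M (log2 fold change 0.79 ± 0.18, adjusted p = 0.22). Il4ra, as given above, did not pass the test, the decoy chain Il13ra2 had a log2 fold change of 0.12 ± 0.34, and the ligand Il13 had 8 to 39 counts.

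The interleukin 10 and interleukin 11 receptors had most of their difference between 2W and 6W. Il10rb, the chain shared by receptors of the interleukin 10 family, was at 21.9 and 19.99 CPM at 2W, 32.1 and 30.2 at 6W, and 29.9 and 34.5 at 3M (3M against 2W, log2 fold change 0.62 ± 0.13, adjusted p = 0.029). Il11ra1, the interleukin 11 receptor, was at 8.72 and 7.23 CPM at 2W, 13.5 and 13.0 at 6W, and 16.2 and 16.7 at 3M (1.04 ± 0.16, adjusted p = 0.013). Both 2W libraries lay below the other 4 in both genes.

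Il11ra2, a near-identical copy of Il11ra1, was at 4.74 and 4.48 CPM at 2W, 9.16 and 8.83 at 6W, and 8.84 and 7.66 at 3M (0.84 ± 0.18, adjusted p = 0.034). Its value is uncertain, since the counting could split reads between the copies, 78.4% to 94.5% of its counts fell on 1 assembled transcript, and the genes overlap Ccl27a and Ccl27b. The ligand Il10 had 1 and 3 counts at 2W and 5 to 15 later, and Il11 was at 0.618 to 1.39 CPM. Il22ra2, a soluble binding protein for interleukin 22, had 3 and 0 counts at 2W, 27 and 12 at 6W, and 44 and 2 at 3M, so that its 3M replicates span almost its whole range.

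In the interleukin 6 and interleukin 12 families, Il6ra, the ligand-binding chain that works with Il6st, was at 21.4 and 24.2 CPM at 2W, 30.4 and 28.9 at 6W, and 31.4 and 33.4 at 3M. Its 1.42-fold rise (log2 fold change 0.51 ± 0.12, adjusted p = 0.044) was the smallest of the called ones, and it was called in 5 of 15 alternatives. Il6st was at 464 and 465 CPM at 2W and at 528 to 562 in the other libraries (0.24 ± 0.09, adjusted p = 0.15).

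Il12b, the subunit shared by interleukins 12 and 23, was at 3.48 and 4.17 CPM at 2W, 6.20 and 6.44 at 6W, and 7.40 and 7.35 at 3M. It rose 1.93-fold (0.95 ± 0.20, adjusted p = 0.031). The receptor chains differed in sign, and neither passed the test. Il12rb2 had a log2 fold change of 0.52 ± 0.14 (adjusted p = 0.060), with 28.3 and 32.7 CPM at 3M above 18.6 to 21.7 in the other libraries, and Il12rb1 one of -0.45 ± 0.14 (adjusted p = 0.095), with 17.4 and 19.3 CPM at 3M below 21.0 to 27.4 in the others.

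The interleukin 17 family held no called gene. Il17ra, the shared chain, stayed at 214 to 272 CPM, and its ligands Il17a and Il17f had at most 1 and 5 counts in a library. Il17rc, its partner chain, had a log2 fold change of 1.35 ± 0.38 from 26 and 14 counts at 2W (adjusted p = 0.071). Il16, the most abundant ligand gene, was at 319 to 393 CPM with overlapping ages at 2W and 3M.

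**Figure D5:**
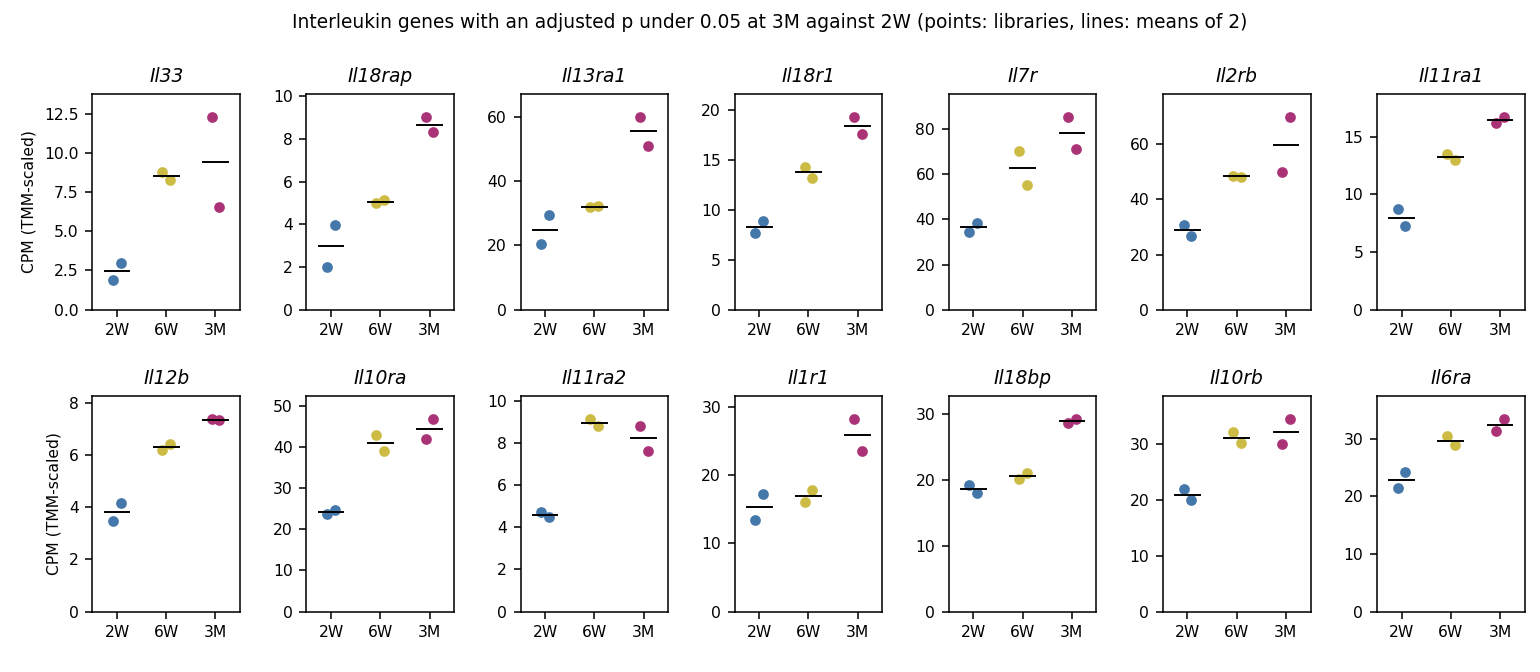
CPM (TMM-scaled) in each library at 2W, 6W and 3M of the 14 interleukin genes called at 3M against 2W, ordered by fold change, with lines at the mean of 2 and axes from 0. All of them but Il11ra2 have a higher mean at each later age, while Il13ra1, Il1r1 and Il18bp differ mainly between 6W and 3M, and Il10ra, Il10rb and Il11ra2 mainly between 2W and 6W.

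The genes that act beside and below these receptors were read from a list of their own. Of 49 genes for kinases, STAT factors, inhibitors and related receptors, 6 were higher and 0 lower at 3M against 2W, beside 7.91% and 3.10% of all tested genes. At 6W against 2W 1 was higher (Lifr), beside 1.47% of all genes, and none was called at 3M against 6W. The median log2 fold change of the 49 was 0.28 at 3M against 2W, beside -0.026 over all genes. Lifr and Osmr, which pair with Il6st in the receptors for leukaemia inhibitory factor and oncostatin M, had the largest log2 fold changes of these 6.

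Lifr was at 212 and 199 CPM at 2W, 443 and 395 at 6W, and 697 and 762 at 3M (log2 fold change 1.83 ± 0.11, adjusted p = 0.0043), and Osmr went from 21.5 and 20.2 to 47.9 and 60.6 CPM (1.38 ± 0.15, adjusted p = 0.0066). Their partner Il6st, given above, did not pass. Socs5, Csf2rb2 and Irak2 had log2 fold changes of 0.66, 0.82 and 0.72. Jak3, the kinase bound to the common gamma chain, stayed at 29.9 to 38.3 CPM, and Stat5a and Stat5b, which act below Il7r and Il2rb, had log2 fold changes of -0.02 ± 0.12 and -0.20 ± 0.12.

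Markers of several cell types moved over the same libraries. From 2W to 3M, 5 of 8 double-positive thymocyte markers fell, and their summed level went from 14640 and 16378 CPM to 11755 and 11728. All 4 cycling markers fell, from 3414 and 3404 to 2302 and 1792. Of the macrophage markers 4 of 5 rose, with sums of 141 to 169 CPM at 2W, 288 to 303 at 6W and 274 to 354 at 3M. Of the dendritic cell markers 3 of 5 rose, from 25.4 to 28.6 CPM at 2W to 50.9 to 63.2 at 3M.

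Among lymphoid lists, 3 of 5 markers of early progenitors and innate lymphoid cells rose (Flt3, Id2 and Zbtb16), with sums of 61.7 and 63.8 CPM at 2W and 99.7 and 97.6 at 3M. Flt3 is also in the dendritic cell list and is counted there too. Kit (log2 fold change -0.10, adjusted p = 0.62) and Gata2 (0.73, adjusted p = 0.51) did not pass. Of 4 tested natural killer markers 2 rose, with sums of 61.4 to 66.5 CPM at 2W and 98.3 to 106 at 3M. Of the natural killer markers, Ncr1 stayed below 1 CPM in all libraries. The tuft-like epithelial markers, of which 2 of 4 rose, summed to 10.7 and 10.97 CPM at 2W and 26.2 and 28.4 at 3M, and 4 of 5 adipocyte markers rose, with sums of 32.5 and 35.4 CPM at 2W, 87.8 and 96.0 at 6W, and 189 and 104 at 3M. Of the remaining lists, 1 of 5 mature T cell markers rose, 2 of 5 of the cortical epithelium rose and 1 fell, 2 of 4 of fibroblasts rose and 2 fell, and no regulatory T cell, medullary epithelium, neutrophil, mast cell, B cell, endothelial or red blood cell marker passed the test. No marker of any list was at 0 in every library. The part of these cell types in the changes of the interleukin genes was not tested.

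The transcript that led a gene was not always the same one. The Il7r counts fell to 84.8% to 94.3% on 1 annotated transcript (ENSMUST00000003981), and those of Il10ra to 82.8% to 100% on 1 of 3. The Il18r1 counts were spread over 8 transcripts, of which ENSMUST00000108044 took 14.5% and 45.3% at 2W, 19.2% and 45.5% at 6W, and 46.5% and 66.5% at 3M. The share of Il18r1 thus differed between replicates as much as between ages, and single transcripts were not tested. Annotated genes overlap Il6ra, Il10ra, Il13ra1 and Il33 as well as the Il11ra pair, and whether the counting used the strand is not given in the sources used here.

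Circular RNAs were listed for 5 of the interleukin genes, with 6 circles in all, each lying inside its gene on GRCm38.p6. The most abundant came from Il6st (chr13:112487709-112490642, plus strand, annotated exons, 476 bases after splicing), with 5 and 3 back-spliced junction counts at 2W, 11 and 8 at 6W, and 3 and 10 at 3M. The depth was 10663 to 21914 junction counts per library, and the 3M replicates span almost the whole range. The other 5 circles, from Il6st, Il7, Il7r (antisense), Il17ra and Il18bp, had 2 to 5 counts in all.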

How the data were processed

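Whole-thymus RNA of 6 libraries (2 per age) was analysed from the deposited mRNA and circRNA tables. For mRNAs the authors deposited estimated counts and FPKM per transcript, and for circRNAs back-spliced junction counts and RPM, which are per 1000000 junction counts of the library. The labels name Bowtie 0.12.2 and mm8 with no role, and the program behind the tables is not given in the sources used here. The circRNA coordinates of all 6 circles lie within their genes on GRCm38.p6. The RPM values, the lncRNA and the miRNA tables were not used here.

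Estimated counts were summed by gene symbol (symbols that differ only in case were joined, which touched 665 genes and no interleukin gene) and rounded. The 372 of 77525 transcripts without a symbol, with 0.7% to 1.2% of the counts, were left out. Genes were filtered with filterByExpr by age and tested with edgeR 4.0.16 in R 4.3.3 (TMM, quasi-likelihood test, prior count 0.125, all 6 libraries), with Benjamini-Hochberg adjustment over 14805 genes. SE is the log2 fold change divided by the root of F. With 2 libraries an age, an exact permutation test cannot go below p = 0.333. On data simulated for 6W against 2W, 88.5% of 200 genes changed 4-fold were recovered among 14805, and 11 unchanged genes were called. The changed genes were drawn above a floor on mean CPM. Smaller changes were not simulated, so how many of those the test would recover is not known. Biological replicates were labelled, but p-values measure only the spread between these libraries. Replicates differed by more than counting noise (chi-square per gene 7.85 to 37.0).

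Alternatives were DESeq2 1.42.0, total-count scaling, no filter, the 4 libraries compared, a replicate term, prior count 2, exact symbols, annotated transcripts only, limma 3.58.1 on log2(FPKM + 0.1) and each library left out. The interleukin genes, the roles, the signalling and the marker lists were chosen with earlier results of these data known. The values of 1 gene of the signalling list are not reported here. Named are the common gamma family, genes with an adjusted p under 0.05 in any comparison and the 10 highest by FPKM. Genes past the threshold of the study alone are named with their fold change or, for Il1f9, their counts, and further genes of the same receptors (such as Il12rb1, Il12rb2, Il13ra2, Il22ra2 and Il1rl2) were added after their values were seen. Python 3.11.15, pandas 2.3.3 and numpy 2.4.6 served for the sums.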

Additional observations from a re-analysis of the deposited data

How the results depend on the processing

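At 6W against 2W, where 1 interleukin gene passed the adjusted test, DESeq2 called 9 (8 higher, 1 lower), total-count scaling 3, no filter 4, the 4 libraries alone 7 (6 higher, 1 lower) and limma 5, while the replicate block, exact symbols and annotated transcripts alone called 0 (unadjusted p under 0.05: 15, 18 and 13). Over all tested genes 257 passed. The fits from DESeq2 to limma called 888, 395, 467, 662 and 402 of all genes, in that order, and the others 5, 124 and 4. The count of interleukin genes fell without either 2W or either 6W library and rose without either 3M library, there with a lower gene among the calls. The count over all tested genes fell and rose in the same fits. At the threshold of the study, total-count scaling and limma gave 5 in place of 2, and leaving out 1 library 1 to 5. At 3M against 6W, DESeq2 called 2 in place of 0, and at the threshold of the study annotated transcripts alone gave 1 and leaving out 1 library 0 to 2 (2 without 3M replicate 1, both lower). At 3M against 2W, where 14 passed, the 4 libraries alone and the replicate block each called 6, annotated transcripts alone 9, and DESeq2 and limma 14 each. Over all tested genes these fits called 663, 742, 922, 2200 and 1603, in place of 1630. Leaving out 1 library lowered the count of interleukin genes each time. At the threshold of the study leaving out 1 library gave 6 to 12 in place of 10, and 1 gene was lower without 3M replicate 1 and with annotated transcripts alone. The cause of these differences was not tested. Il10ra at 6W against 2W and the 14 called genes at 3M against 2W kept their direction under each alternative in which they were tested. The alternatives were run on all genes, but most other named genes were not followed singly through them.

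Whether the replicate numbers pair the samples cannot be settled with 2 libraries an age. Deviations of libraries with the same number correlated at -0.058 (2W and 6W), 0.353 (6W and 3M) and -0.178 (2W and 3M). There are 2 libraries an age, and the calls depend on single libraries of all ages.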
